A study of Mus musculus with 8 samples.

Results

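The genes described here are the 9 members of the mouse machinery that senses lipopolysaccharide (LPS) and other microbial molecules at the cell surface or in endosomes: the co-receptors Cd14 and Ly96, the receptors Tlr4, Tlr2, Tlr1, Tlr6 and Tlr9, and the adaptors Myd88 and Ticam1. Members were named by symbol, and a loop was assigned to a gene when 1 of its 2 bins of 5 kb held the start of the canonical GENCODE transcript. All 9 genes had such a promoter loop in at least 1 list. They held 75 different loops of the 214313 in the series, where 10513 of 21738 protein-coding genes had a promoter loop.

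HPC-7 is a mouse haematopoietic progenitor cell line. The cells carried either p42, the full-length isoform of the transcription factor CEBPA, or p30, the shorter isoform that lacks N-terminal activation domains, and each was left untreated (UT) or given LPS at 100 ng/mL for 2 h. The 4 groups (UT or LPS for each isoform, as the plots are marked) have 2 replicates each, 8 libraries in all, measured by HiChIP, which ligates DNA ends lying close together in the nucleus and pulls down those on chromatin with acetylated histone H3 lysine 27 (H3K27ac), a mark of active promoters and enhancers. All groups carry an isoform brought in by a retrovirus from an MSCV promoter with GFP, there is no group without a transgene, and cells were sorted for GFP. The study's methods give the line names p42 HPC-7 and p30 HPC-7 to cells with an ERT2 fusion of the isoform, which enters the nucleus with 4-hydroxytamoxifen, an agent that all groups would then share. They also describe a constitutive form under names of its own, and the HiChIP methods do not mention the construct. Both replicates of a group were deposited as 1 list of significant loops, so every difference below compares those pooled libraries and not the conditions, the spread between replicates is unknown, and intervals cover counting error only.

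LPS is handed by the soluble protein LBP to CD14, a receptor anchored in the membrane without a tail of its own, and from there to a complex of TLR4 and MD-2, the product of Ly96. TLR4 then signals through MYD88, which leads to NF-kB and AP-1 and to inflammatory cytokines, and, once taken up into endosomes, through TRIF, the product of Ticam1, which leads to type I interferon. TLR2 pairs with TLR1 or TLR6 to recognise bacterial lipopeptides, and TLR9 recognises unmethylated CpG DNA in endosomes. Myeloid cells are known for high levels of these receptors, and haematopoietic progenitors carry some of them too.

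Promoter windows from RefSeq are shown for 5 of these genes. Those of 4 (Tlr2, Tlr6, Tlr9 and Ticam1) lie in the bin that anchors the gene's loops. That of Myd88 lies in the bin beside its anchoring bin, and that neighbour has loops of its own. Tlr1, with its RefSeq start in the anchoring bin too, is described but not printed. Of the Tlr6 windows, only the one with a motif match is printed. RefSeq has windows of 300 bases (250 before and 50 after the start) for 6 of the 9 genes, 8 windows in all, in its table for GRCm38.p6, and all 8 were found once in GRCm39, the build of the loops, by an exact match. Cd14, Ly96 and Tlr4 are named only. Each sequence is printed 5′ to 3′ on the strand of transcription in lower case, and capitals mark matches on either strand to a C/EBP motif (TTGCNNAA), an AP-1 motif (TGANTCA), an NF-kB motif (GGGNNTTTC) or a PU.1 motif (GAGGAAG). Positions count from the start site, base 0. The windows lie at chr3:83748866-83749165 (Tlr2, minus strand), chr5:65116460-65116759 (Tlr6, minus strand), chr9:106099547-106099846 (Tlr9, plus strand), chr9:119169035-119169334 (Myd88, minus strand) and chr17:56583718-56584017 (Ticam1, minus strand).
Tlr2: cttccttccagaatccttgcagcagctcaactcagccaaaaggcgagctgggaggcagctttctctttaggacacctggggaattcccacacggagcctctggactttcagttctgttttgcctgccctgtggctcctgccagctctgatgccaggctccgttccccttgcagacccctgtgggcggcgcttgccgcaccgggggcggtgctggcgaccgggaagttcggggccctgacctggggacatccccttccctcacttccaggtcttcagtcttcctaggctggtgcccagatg
Tlr6: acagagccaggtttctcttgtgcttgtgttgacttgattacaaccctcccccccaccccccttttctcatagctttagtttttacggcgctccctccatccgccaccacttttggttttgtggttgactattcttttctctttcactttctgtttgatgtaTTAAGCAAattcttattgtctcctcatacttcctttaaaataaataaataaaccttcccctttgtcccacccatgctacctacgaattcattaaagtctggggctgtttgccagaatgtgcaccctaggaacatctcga
Tlr9: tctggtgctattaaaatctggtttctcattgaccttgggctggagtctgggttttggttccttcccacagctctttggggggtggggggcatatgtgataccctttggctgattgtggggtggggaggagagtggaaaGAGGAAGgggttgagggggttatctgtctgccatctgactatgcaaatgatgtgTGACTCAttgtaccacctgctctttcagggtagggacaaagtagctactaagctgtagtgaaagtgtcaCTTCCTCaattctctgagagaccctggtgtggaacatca
Myd88: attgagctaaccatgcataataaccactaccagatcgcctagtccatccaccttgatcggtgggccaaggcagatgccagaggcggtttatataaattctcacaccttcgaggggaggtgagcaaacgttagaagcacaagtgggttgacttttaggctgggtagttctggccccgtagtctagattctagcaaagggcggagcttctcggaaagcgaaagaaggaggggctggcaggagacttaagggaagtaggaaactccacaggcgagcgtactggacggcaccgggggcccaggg
Ticam1: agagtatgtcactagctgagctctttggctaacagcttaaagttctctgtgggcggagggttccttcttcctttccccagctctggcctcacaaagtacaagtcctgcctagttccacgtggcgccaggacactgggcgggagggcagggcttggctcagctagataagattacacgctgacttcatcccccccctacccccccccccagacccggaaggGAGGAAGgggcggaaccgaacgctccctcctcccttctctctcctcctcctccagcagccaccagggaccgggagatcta

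The Tlr9 window held 3 matches, an AP-1 match from -58 to -52 and PU.1 matches from -112 to -106 and from 11 to 17. Of the 2 Tlr6 windows, the one printed, whose start lies 881 bases downstream of the canonical one, held the C/EBP match TTAAGCAA from -89 to -82, and the one at the canonical start held no match to any of the 4 motifs. A PU.1 match stood at -30 to -24 of Ticam1 and at -23 to -17 of the Tlr1 window whose start site lies 24 bases downstream of its canonical start, the other Tlr1 window having none. Tlr2 and Myd88 had no match to these letters, and the NF-kB letters matched in none of the 8 windows. Of all 32851 RefSeq windows of this length, 10.8% held the C/EBP letters, 7.81% the AP-1 letters, 4.36% the NF-kB letters and 13.6% the PU.1 letters. The AP-1 letters overlap with those of related factors, and none of the 4 motifs was searched in the distal bins. Only the letters given were searched. A window without a match may therefore still hold another form of a motif, that of NF-kB included.

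The 9 genes held 22 loops in untreated p30, 39 in LPS-treated p30, 56 in untreated p42 and 42 in LPS-treated p42. Both lists with p42 therefore had more loops than the p30 list of the same treatment, and untreated p30 had the fewest. The lists themselves were not of 1 size: they held 80489, 94609, 158233 and 78591 loops in the same order. Per 10000 loops of a list, the 9 genes held 2.73 in untreated p30 (95% Wilson interval 1.81 to 4.14), 4.12 in LPS-treated p30 (3.02 to 5.63), 3.54 in untreated p42 (2.73 to 4.60) and 5.34 in LPS-treated p42 (3.95 to 7.22). On this scale LPS-treated p42 was highest and all 4 intervals overlapped. With every list shortened to the size of the smallest by q-value, the counts were 22, 35, 33 and 42, so that LPS-treated p42 and not untreated p42 was then highest. In these bulk libraries, fewer cells with a contact and fewer contacts per cell cannot be told apart.

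**Figure D1:**
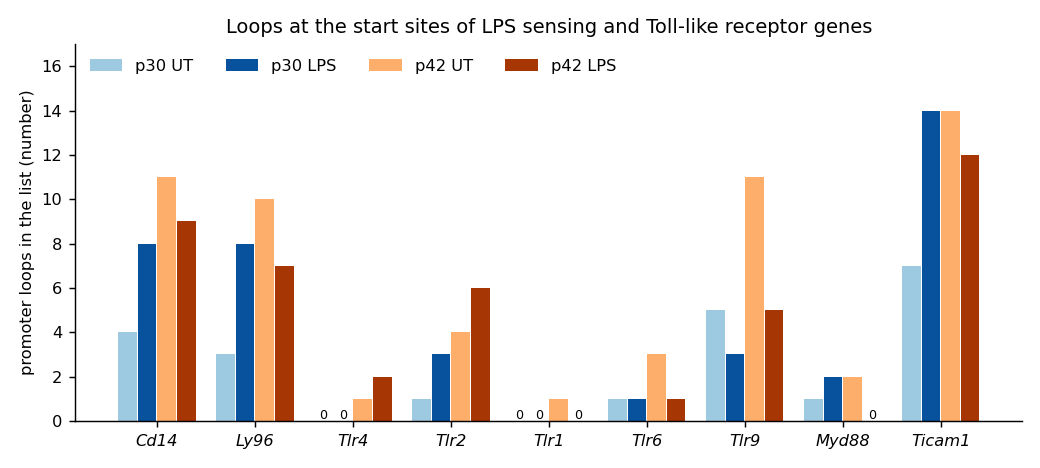
Number of promoter loops (bars, y axis) of each of the 9 genes (x axis) in the 4 pooled lists, as deposited. Ticam1 reaches 14 loops in LPS-treated p30 and untreated p42, Cd14 runs from 4 in untreated p30 to 11 in untreated p42, and Tlr4 has 0 in both p30 lists.

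Of the 75 loops, 14 were in all 4 lists, 14 in untreated p42 alone, 7 in LPS-treated p30 alone, 6 in LPS-treated p42 alone and 3 in untreated p30 alone. Over all loops of the series these shares were 14.5%, 28.7%, 8.86%, 5.97% and 6.98% in the same order, with the longest list, untreated p42, holding the most loops of its own. Another 9 of the 75 were listed in both p42 lists and in neither p30 list, and 0 in both p30 lists and in neither p42 list, against 5.53% and 1.58% of all loops. Loops found after LPS in both lines and in neither untreated list numbered 3, against 1.33% of all loops. With 75 loops and no replicate lists, nothing particular to the 9 genes is read from these counts. Every one of these loops joined a pair of bins that both held an H3K27ac peak, against 90.8% to 93.0% of all promoter loops. Their median distance was 25 kb in LPS-treated p30, 30 kb in untreated p42, 32.5 kb in untreated p30 and 35 kb in LPS-treated p42, below the 45 to 50 kb of all promoter loops. Median contacts over the caller's expected count were 3.72 in untreated p30, 4.06 in LPS-treated p30, 3.79 in untreated p42 and 4.23 in LPS-treated p42, against 4.56 to 4.67 for all promoter loops.

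Cd14, the co-receptor that delivers LPS to TLR4, was the member whose start-site bin differed most in coverage between p30 and p42. Its start lies on chromosome 18 at 36859851 on the minus strand, in the bin 36855001 to 36860000 and 149 bases from the bin's end. The gene had 4 promoter loops in untreated p30, 8 in LPS-treated p30, 11 in untreated p42 and 9 in LPS-treated p42. Many of these went to touching partner bins, and with such bins merged the counts were 2, 4, 2 and 2, so that p42 no longer had more. Contacts summed over them were 111, 321, 943 and 646. The read coverage of the bin was 2982 in untreated p30, 4463 in LPS-treated p30, 10900 in untreated p42 and 7271 in LPS-treated p42. Divided by the mean of all peak bins of its list, this was 1.24, 1.99, 3.74 and 3.75, so that both p42 lists stood above both p30 lists and LPS went with a higher value in p30 but not in p42. Both bins beside the start-site bin had the same order, with relative coverage of 0.909 and 1.05 in untreated p30, 1.65 and 1.54 in LPS-treated p30, and 2.94 to 3.29 in the p42 lists.

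The relative coverage of the Cd14 bin was 3.02-fold higher in untreated p42 than in untreated p30, which exceeded 99.97% of 6849 start-site bins listed in both, and 1.88-fold higher in LPS-treated p42 than in LPS-treated p30, which exceeded 99.5% of 6135. It was 1.61-fold higher in LPS-treated p30 than in untreated p30 (above 99.1% of 6394 bins), and in p42 the value after LPS equalled that without LPS to within 1% on this scale. The log2 ratio of that last comparison was -0.17 when scaled by the median of peak bins and -0.32 per modelled contact. The median log2 ratio over all start-site bins was 0.06, -0.11, 0.04 and -0.13 in these comparisons. The share of start-site bins at least 1.5-fold higher was 3.72% for untreated p42 against untreated p30, 1.79% for LPS-treated p42 against LPS-treated p30, 1.92% for LPS-treated p30 against untreated p30 and 0.743% for LPS-treated p42 against untreated p42. The share at least 1.5-fold lower was 1.43%, 3.72%, 0.36% and 1.09% in the same order. Cd14 passed 1.5-fold higher in 3 of these comparisons, Tlr2 in 1 (untreated p42 against untreated p30), and Ly96 and Myd88 in 1 each (LPS-treated p30 against untreated p30). No member was at least 1.5-fold lower in any of them. With coverage scaled per modelled contact, the log2 ratio of Cd14 in p42 over p30 after LPS was 0.58, just short of 1.5-fold. For Ly96 in that comparison it was -0.54, and -0.59 by the median of peak bins and -0.87 per modelled contact, both past 1.5-fold lower. Tlr6, 1.43-fold higher in untreated p42 than in untreated p30, passed 1.5-fold under both other scalings.

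**Figure D2:**
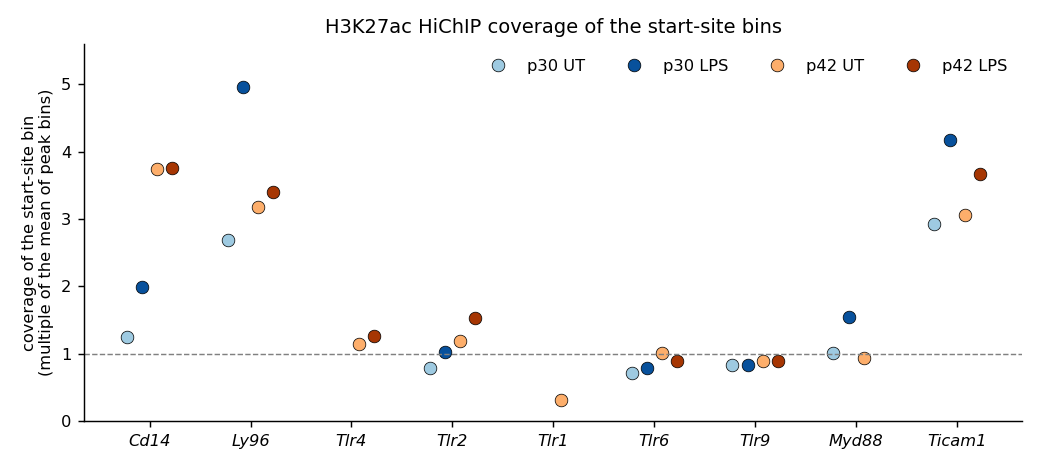
Coverage of the start-site bin (points, y axis, as a multiple of the mean coverage of peak bins in the same list, dashed line at 1) for the 9 genes in each pooled list. A missing point is a bin that the list does not hold. Cd14 stands at 3.74 and 3.75 in the p42 lists and at 1.24 and 1.99 in the p30 lists, and Ly96 reaches 4.95 in LPS-treated p30.

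The partners of Cd14 lay mainly downstream of it. The bin 10 kb downstream, an intron of the long non-coding gene Gm41699, had the most contacts over the lists, with 49 in untreated p30, 82 in LPS-treated p30, 178 in untreated p42 and 145 in LPS-treated p42. The bin 15 kb downstream, which covers an exon of Gm41699, had 34, 50, 160 and 114 contacts in the same order. The bin with the start site of E230025N22Rik, 30 kb downstream, had 15, 33, 69 and 53. At each of these 3 partners, listed in all 4 lists, untreated p42 had the most contacts and untreated p30 the fewest. On the upstream side, the start-site bin of Tmco6 at 10 kb had 76 contacts in LPS-treated p30, 185 in untreated p42 and 146 in LPS-treated p42, and was not listed in untreated p30. Between 20 and 25 kb downstream, the Gm41699 bins had 33 and 23 contacts in LPS-treated p30, 82 and 66 in untreated p42 and 62 and 44 in LPS-treated p42, and were not listed for untreated p30. Loops to the exon of Tmco6 (63 contacts) and to the shared start-site bin of Ndufa2 and Ik (41 contacts), 15 and 20 kb upstream, were listed in untreated p42 alone. Contacts over expected at the E230025N22Rik bin were 3.68 in untreated p30, 7.56 in LPS-treated p30, 8.33 in untreated p42 and 7.21 in LPS-treated p42.

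Over the 4 Cd14 loops listed in both untreated lists, untreated p42 held 465 contacts and untreated p30 111. The p42 share was 80.7% (95% Wilson interval 77.3 to 83.7), where the modelled contacts of the lists give 51.4% (two-sided exact binomial test over 7000 genes with Benjamini-Hochberg adjustment, adjusted p = 3.0e-45). Across all genes 22% were called higher and 0.314% lower in this comparison. The caller's expected counts, which include the coverage of both bins, give a p42 share of 73.1%, and against that share the exact test still called Cd14 (adjusted p = 0.00084). After LPS, 7 loops were in both lists, with 586 contacts in LPS-treated p42 and 311 in LPS-treated p30, a share of 65.3% (62.2 to 68.4) against 52.2% (adjusted p = 8.7e-13, exact). The expected counts gave 64.3% there, and against them Cd14 was not called.

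With LPS in p30, the 3 shared Cd14 loops held 165 contacts against 98 in untreated p30, 62.7% (56.8 to 68.4) where 44.7% is given by the modelled contacts (adjusted p = 3.3e-07, exact binomial test over 6274 genes). The expected counts gave 56.0%, and against them Cd14 was not called. In p42, 9 loops were shared, with 646 contacts after LPS and 839 without, 43.5% (41.0 to 46.0) against 45.5%, which did not pass the threshold (adjusted p = 0.36, exact). With contacts pooled over the start-site bin and both neighbours, Cd14 was called lower after LPS in p42, with 42.8% against 45.5% (adjusted p = 0.0091, exact), as were 1892 of 8364 genes. The difference between both LPS comparisons was not tested.

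**Figure D3:**
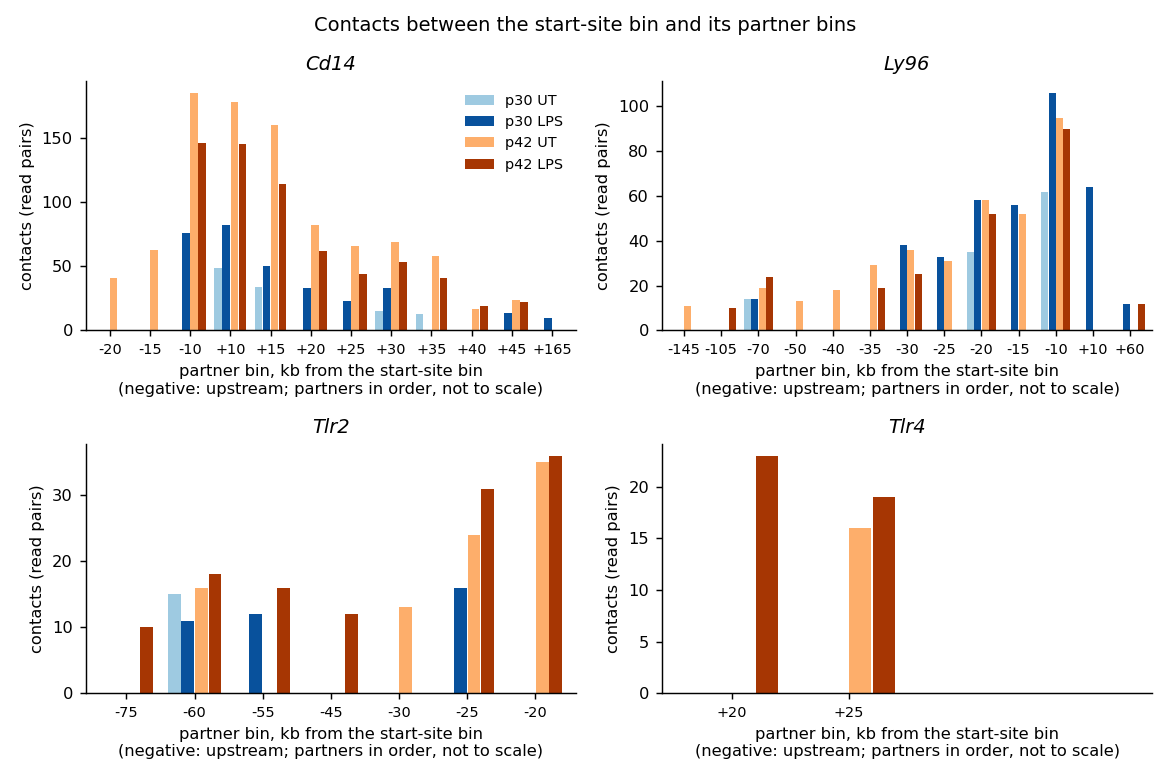
Contacts (bars, y axis, read pairs) between the start-site bin and each partner bin (x axis, distance in kb with upstream negative, in order and not to scale) for Cd14, Ly96, Tlr2 and Tlr4 in the 4 pooled lists. A missing bar is a pair that the list does not hold. Cd14 has 178 contacts in untreated p42 and 49 in untreated p30 at the partner 10 kb downstream, and both Tlr4 partners have bars in p42 lists only.

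Ly96, which encodes the MD-2 protein that binds the lipid part of LPS, had its highest coverage and most contacts in LPS-treated p30, and most loops in untreated p42, as deposited. With lists of equal size it had 3 loops in untreated p30 and 7 in each other list. With touching partner bins merged it had 3 in untreated p30, 4 in LPS-treated p30, 4 in untreated p42 and 6 in LPS-treated p42. The last was then highest. Its start lies on chromosome 1 at 16758657 on the plus strand, in the bin 16755001 to 16760000, which also holds the start of the long non-coding gene Gm69889. Ly96 had 3 loops in untreated p30, 8 in LPS-treated p30, 10 in untreated p42 and 7 in LPS-treated p42, with 111, 381, 362 and 232 contacts. Its coverage was 6454, 11094, 9254 and 6605, or 2.68, 4.95, 3.18 and 3.41 times the mean of peak bins. The ratio of LPS-treated p30 to untreated p30 was 1.85-fold, above 99.8% of start-site bins, and that of LPS-treated p42 to untreated p42 was 1.07-fold, with the sign turned under both other scalings of coverage. Between lines after LPS, the relative coverage in p42 was 0.688 of that in p30, and above only 5.15% of bins.

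Nearly all Ly96 partners lay upstream. The bin 10 kb upstream, an exon of Tmem70, had 62 contacts in untreated p30, 106 in LPS-treated p30, 95 in untreated p42 and 90 in LPS-treated p42. The bin with the start of Tmem70, 20 kb upstream, had 35, 58, 58 and 52. The start-site bin of Ube2w, 70 kb upstream, had 14, 14, 19 and 24. Eloc, which encodes elongin C, has its start-site bin 30 kb upstream, with 38 contacts in LPS-treated p30, 36 in untreated p42 and 25 in LPS-treated p42. A bin 60 kb downstream with no annotated gene had 12 contacts in each of the LPS-treated lists and was in neither untreated list. A loop into an intron of Ly96 itself, 10 kb downstream, was listed in LPS-treated p30 alone with 64 contacts. Over the 3 loops shared by both p30 lists, LPS-treated p30 held 178 contacts and untreated p30 111, a share of 61.6% (55.9 to 67.0) against 44.7% (adjusted p = 5.3e-07, exact binomial test). Over 3 loops shared by the untreated lists, untreated p42 held 172 contacts and untreated p30 111, 60.8% (55.0 to 66.3) against 51.4% (adjusted p = 0.010, exact). After LPS, p42 had 203 and p30 228 contacts at 5 loops, 47.1% (42.4 to 51.8) against 52.2%, which did not pass the threshold (adjusted p = 0.17, exact). Against the expected counts, Ly96 was called in none of the 4 comparisons.

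Tlr4, the signalling receptor for LPS, had no promoter loop in untreated p30 or LPS-treated p30, 1 in untreated p42 and 2 in LPS-treated p42. Its start lies on chromosome 4 at 66745783 on the plus strand, in the bin 66745001 to 66750000, which also holds the start of the long non-coding gene Gm69151. The partner 25 kb downstream had 16 contacts in untreated p42 (3.09 times expected) and 19 in LPS-treated p42 (4.03 times). The partner 20 kb downstream was listed in LPS-treated p42 alone with 23 contacts (4.26 times). Both partner bins, 66765001 to 66770000 and 66770001 to 66775000, lie beyond the end of the canonical transcript at 66761037 and inside longer annotated transcripts of Tlr4.

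The coverage of the Tlr4 start-site bin was 3324 in untreated p42 and 2455 in LPS-treated p42, or 1.14 and 1.27 times the mean of peak bins. In p30 the bin was in neither list, so its coverage there is unknown and a missing loop does not show that contacts were absent. No loop of any kind in either p30 list had an end within 100 kb of the Tlr4 start-site bin, against 1 in untreated p42 and 2 in LPS-treated p42. Both bins next to the Tlr4 start-site bin were in no list. The 1 loop shared by the p42 lists had 54.3% of its contacts after LPS (38.2 to 69.5) against 45.5%, and was not called (adjusted p = 0.60, exact). With lists of equal size or at a q-value under 0.001, Tlr4 had 2 loops in LPS-treated p42 and 0 in every other list.

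The genes most like Tlr4 over the 4 lists, by the summed absolute difference of log2(promoter contacts per 1000000 modelled contacts + 1), were Rnf144a (0.18), Bbs10 (0.22) and Micu2 (0.35). All had 0 loops in both p30 lists. Rnf144a had 1 loop in untreated p42 and 3 in LPS-treated p42, Bbs10 2 and 2, and Micu2 1 and 1. Their contacts per 1000000 were 0.947, 1.00 and 0.579 in untreated p42 and 2.40, 2.91 and 2.34 in LPS-treated p42, beside 0.842 and 2.65 for Tlr4.

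Tlr2, the receptor for bacterial lipopeptides, had its highest number of loops in LPS-treated p42, as Tlr4 did. It had 1 loop in untreated p30, 3 in LPS-treated p30, 4 in untreated p42 and 6 in LPS-treated p42, with 15, 39, 88 and 123 contacts. The start lies on chromosome 3 at 83749074 on the minus strand, in the bin 83745001 to 83750000. Coverage of the bin was 1885, 2299, 3445 and 2978, and relative to peak bins 0.784 in untreated p30, 1.03 in LPS-treated p30, 1.18 in untreated p42 and 1.54 in LPS-treated p42. Both p42 values exceeded both p30 values, and within each line the LPS value was the higher. The ratio of p42 to p30 was 1.51-fold without LPS and 1.496-fold after LPS, and that of LPS to UT 1.31-fold in p30 and 1.30-fold in p42.

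Every Tlr2 partner lay upstream of the gene, between 20 and 75 kb away. The partner listed everywhere, 60 kb upstream in an exon of Tmem131l, had 15 contacts in untreated p30, 11 in LPS-treated p30, 16 in untreated p42 and 18 in LPS-treated p42. Nearer to the gene, the bin with the starts of the long non-coding genes Gm65019 and Gm65015, 20 kb upstream, had 35 contacts in untreated p42 and 36 in LPS-treated p42 and was in no p30 list. The next bin, 25 kb upstream, had 16 contacts in LPS-treated p30, 24 in untreated p42 and 31 in LPS-treated p42. The number of listed loops with an end within 100 kb of the Tlr2 start-site bin was 1 in untreated p30, 5 in LPS-treated p30, 10 in untreated p42 and 15 in LPS-treated p42. At loops shared by the lists compared, Tlr2 passed the exact test in none of the 4 comparisons (adjusted p from 0.17 to 1.0). Its p42 share after LPS was 62.5% (52.9 to 71.2, 3 loops, 104 contacts) against 52.2%. Pooling the start-site bin with both neighbours brought 2 calls of higher. After LPS p42 then held 62.6% of contacts against 52.2% (adjusted p = 0.039, exact), a call that 120 of 7668 genes had, and in p42 the LPS share was 53.4% against 45.5% (adjusted p = 0.022, exact), a call that 43 of 8364 genes had. With pairs missing from a list set to 0 contacts, Tlr2 was called higher in all 4 comparisons. That setting gives unknown counts the value 0. It called most genes higher in untreated p42 against p30 and with LPS in p30, and most genes lower in the others.

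Tlr1 and Tlr6 encode the partners of TLR2 and lie next to each other on chromosome 5. Their start sites at 65090925 and 65117390, both on the minus strand, are 25 kb apart by bin. A loop between both start-site bins was listed in untreated p42 alone, with 13 contacts (3.90 times expected), and was the only promoter loop of Tlr1 in any list. It was lost in lists of equal size and at a q-value under 0.001, where Tlr1 had 0 loops in every list. The Tlr1 bin had a coverage of 921 there, 0.316 of the mean of peak bins. It also holds the start of the long non-coding gene Gm73222.

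Tlr6 had 1 loop in untreated p30, LPS-treated p30 and LPS-treated p42 and 3 in untreated p42, with 10, 13, 17 and 44 contacts. Its loop to a bin 75 kb downstream, in an exon of Gm31889, was in all 4 lists, with 10 contacts in untreated p30, 13 in LPS-treated p30, 19 in untreated p42 and 17 in LPS-treated p42. Contacts over expected at this loop were 6.53, 8.66, 11 and 11.2 in the same order. Both p42 values exceeded both p30 values, though at 10 to 19 contacts the shares did not pass the exact test (adjusted p from 0.33 to 0.98). Coverage of the Tlr6 start-site bin was 1699, 1757, 2933 and 1724, or 0.706, 0.785, 1.01 and 0.889 of the mean of peak bins.

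Tlr9, the endosomal receptor for CpG DNA, had its highest number of loops in untreated p42 and fewer after LPS in both lines, as deposited. The counts were 5 in untreated p30, 3 in LPS-treated p30, 11 in untreated p42 and 5 in LPS-treated p42, with 93, 51, 220 and 87 contacts. Shortening the lists to equal size left 5, 3, 4 and 5 loops, so that untreated p42 was no longer highest and p42 had more after LPS. Its start lies on chromosome 9 at 106099797 on the plus strand, 203 bases before the end of the bin 106095001 to 106100000. Coverage was 2012, 1844, 2588 and 1726, between 0.823 and 0.890 of the mean of peak bins in every list. Per modelled contact the log2 ratios of the bin were 0.28 for untreated p42 over untreated p30, -0.22 between lines after LPS, 0.18 for LPS in p30 and -0.32 for LPS in p42. The start-site bin of Poc1a, 60 kb downstream and listed everywhere, had 14 contacts in untreated p30, 14 in LPS-treated p30, 27 in untreated p42 and 17 in LPS-treated p42. Partners in exons of Alas1, the first enzyme of haem synthesis, at 20 and 40 kb downstream had 20 and 18 contacts in untreated p42 and 20 and 23 in LPS-treated p42, and were in neither p30 list. A loop to the Twf2 start-site bin, 15 kb upstream, had 27 contacts in LPS-treated p30 and 36 in untreated p42. The bin 10 kb downstream was listed in untreated p30 alone, with 41 contacts. Over the 2 loops shared by the untreated lists, untreated p42 held 52 contacts and untreated p30 25, a share of 67.5% (56.5 to 76.9) against 51.4% (adjusted p = 0.029, exact). Against the expected counts, at loops in all 4 lists, or against the median share of all genes, Tlr9 was not called.

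Myd88, the adaptor shared by these receptors, had 1 promoter loop in untreated p30, 2 in LPS-treated p30, 2 in untreated p42 and none in LPS-treated p42. With lists of equal size the counts were 1, 2, 0 and 0, so that untreated p42 had none either. Its canonical start lies on chromosome 9 at 119170486 on the minus strand, in the bin 119170001 to 119175000, which it shares with the start of Acaa1a, a peroxisomal thiolase gene, so that these loops cannot be assigned to 1 of the pair. The bin had a coverage of 2444 in untreated p30, 3472 in LPS-treated p30 and 2727 in untreated p42, or 1.02, 1.55 and 0.937 of the mean of peak bins, a ratio of 1.53-fold for LPS-treated p30 to untreated p30 (above 98.5% of bins). The loop to the start-site bin of Oxsr1, 20 kb downstream, had 31 contacts in untreated p30, 31 in LPS-treated p30 and 30 in untreated p42.

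The RefSeq start of Myd88 printed above lies 1402 bases downstream of the canonical one and falls in the next bin, 5 kb downstream. That bin had 3 loops in untreated p30, 7 in LPS-treated p30, 5 in untreated p42 and 4 in LPS-treated p42, with 152, 340, 265 and 210 contacts. Its coverage was 4881, 8813, 6291 and 5172, or 2.03, 3.94, 2.16 and 2.67 times the mean of peak bins, highest in LPS-treated p30. The absence of Myd88 from LPS-treated p42 therefore held for the canonical start-site bin and not for the bin beside it. At its canonical start-site bin, Myd88 was not called: 1 shared loop had 50.0% of contacts in LPS-treated against untreated p30 (44.7% by modelled contacts, adjusted p = 0.73, exact) and 49.2% in untreated p42 against p30 (51.4% by modelled contacts, adjusted p = 0.95, exact). With contacts pooled over the start-site bin and both neighbours, an alternative, Myd88 was called higher in LPS-treated p30 than in untreated p30, with 63.9% of contacts against 44.7% (adjusted p = 4.3e-16, exact), and lower in LPS-treated p42 than in LPS-treated p30, with 39.8% against 52.2% (adjusted p = 1.6e-06, exact). In untreated p42 against untreated p30 the same bins held 58.3% against 51.4%, also called higher (adjusted p = 0.017, exact). With neighbouring bins, 1821 of 7853 genes were called higher in the first of these comparisons, 1414 of 7668 lower in the second and 2489 of 8581 higher in the last.

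Ticam1, which encodes the adaptor TRIF, had the most promoter loops of the 9 genes in every list as deposited. It had 7 in untreated p30, 14 in LPS-treated p30, 14 in untreated p42 and 12 in LPS-treated p42, with 377, 619, 622 and 477 contacts. Cd14 had more in untreated p42 with lists of equal size (9 against 8), and in LPS-treated p42 at a q-value under 0.001 (9 against 6) and with neighbouring bins (26 against 23), and with touching partners merged Tlr9 had more in untreated p42 (6 against 5). Its start lies on chromosome 17 at 56583786 on the minus strand, in the bin 56580001 to 56585000. Coverage was 7027, 9354, 8890 and 7102, or 2.92, 4.18, 3.05 and 3.66 times the mean of peak bins. The LPS value was 1.43-fold higher in p30. In p42 it was 1.199-fold higher, and slightly lower when coverage was scaled to modelled contacts.

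Ticam1 had 5 partners in all 4 lists. The bin 10 kb upstream, in an exon of the lipid droplet gene Plin3, had 106 contacts in untreated p30, 112 in LPS-treated p30, 145 in untreated p42 and 110 in LPS-treated p42. The start-site bin of Plin3, 15 kb upstream, had 92, 129, 124 and 90. The bin 10 kb downstream, in an exon of Fem1a, had 104, 108, 98 and 107, which per 1000000 modelled contacts was 5.79, 7.45, 5.16 and 6.76, highest in LPS-treated p30 and lowest in untreated p42. The start-site bin of Uhrf1, 30 kb upstream, had 34, 33, 38 and 29, and that of Gm64764, 75 kb upstream, 14, 15, 14 and 12. A loop over 310 kb to the shared start-site bin of Safb and Safb2 was listed in untreated p30 with 12 contacts and in untreated p42 with 8, and in neither LPS list.

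At its shared loops, Ticam1 had 53.1% of contacts in p30 after LPS (49.6 to 56.7, 5 loops) against 44.7% by the modelled contacts (adjusted p = 9.1e-05, exact). Between lines after LPS, p42 held 46.6% (43.3 to 50.0, 7 loops) against 52.2%, a call of lower in p42 (adjusted p = 0.013, exact). The other 2 comparisons of Ticam1 did not pass the threshold. With neighbouring bins, untreated p42 against untreated p30 passed too, with 56.4% against 51.4% (adjusted p = 0.00052, exact), where 2489 of 8581 genes were called higher. Both calls at the start-site bin were lost against the expected counts and against the median share of all genes.

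Counted over the 9 genes, untreated p42 against untreated p30 had 3 genes called higher at shared loops (Cd14, Ly96 and Tlr9) and 0 lower among the 7 that could be tested, where 22% of all genes were higher and 0.314% lower. All 9 had more loops in untreated p42, beside 81.9% of all genes with more and 8.25% with fewer, so the members' count follows that of the whole list. When the lists were shortened to equal size, the number with more loops fell to 5 of 7 with a loop, the other 2 having fewer, beside 41.8% of all genes with more and 37.7% with fewer. In LPS-treated p42 against LPS-treated p30, Cd14 was called higher and Ticam1 lower of 6 tested, where 1% of genes were higher and 13.5% lower. There Tlr2, Tlr4, Tlr9 and Cd14 had more loops in p42 and Ly96, Myd88 and Ticam1 fewer, Tlr6 had the same number, and 23.6% of all genes had more and 58.7% fewer.

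In LPS-treated p30 against untreated p30, Cd14, Ly96 and Ticam1 were called higher and 0 genes lower of 7 tested, where 15.9% of genes were higher and 0.191% lower. Of the 7 genes with a loop, 5 had more loops after LPS and Tlr9 fewer, beside 53.1% and 27.6% of all genes. In LPS-treated p42 against untreated p42, 0 of 7 members were called by the exact test, none of them had an unadjusted p under 0.05, and 0.266% of genes were higher and 16.7% lower. Of the 9 members, 2 (Tlr2 and Tlr4) had more loops after LPS and 7 had fewer, beside 4.51% and 87.3% of all genes, and 4 members had more and 1 fewer once the lists were of equal size, beside 31.8% and 46.4% of all genes. The LPS-treated p30 and untreated p42 comparisons share the untreated p30 list, and each value above belongs to its own comparison.

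**Figure D4:**
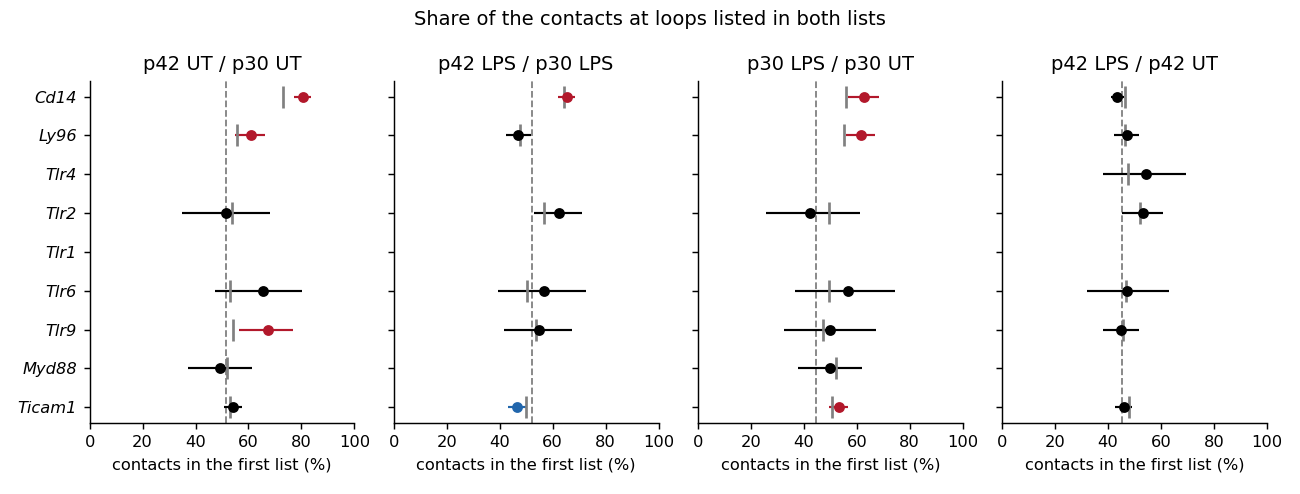
Share of contacts in the first list named (points, x axis, percent) over promoter loops listed in both lists, with 95% Wilson intervals from counting error, for the genes with such a loop (y axis) in 4 comparisons. Red marks genes called higher and blue lower, the dashed line is the share given by the modelled contacts, and the grey tick that given by the expected counts. Cd14 stands at 80.7% in untreated p42 against untreated p30 with its tick at 73.1%.

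Other genes of the pathway were counted as a list of 38: further receptors and accessories, adaptors and kinases, and inhibitors. Of these, 22 had a promoter loop in untreated p30, 26 in LPS-treated p30, 27 in untreated p42 and 24 in LPS-treated p42, and 29 in any list. No loop was listed for Tlr3, Tlr5, Tlr8, Tlr11, Ly86, Cd36, Traf6, Tab3 or Ikbkb. The most loops belonged to Tab1, which encodes a partner of the kinase TAK1, with 11, 14, 19 and 15, and to Pik3ap1, an adaptor that dampens TLR signals, with 9, 19, 18 and 13. The chaperone gene Cnpy3, needed for TLR folding, had 10, 14, 19 and 12, and the kinase gene Irak2 15, 13, 15 and 12. At shared loops, 8 of 18 were called higher in untreated p42 than in untreated p30 (Cnpy3, Hsp90b1, Ikbkg, Irak2, Lbp, Pik3ap1, Tab1 and Tab2) and 0 lower, beside 22% and 0.314% of all genes. After LPS, 0 of 19 were called in either direction between p42 and p30, beside 1% higher and 13.5% lower of all genes. With LPS in p30, 4 of 17 were called higher (Cnpy3, Lbp, Pik3ap1 and Tab1) and 0 lower, beside 15.9% and 0.191% of all genes. With LPS in p42, Peli1 was called higher and Hsp90b1, Irak2 and Tab1 lower of 23, beside 0.266% and 16.7% of all genes.

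Among the marker lists, promoter loops were most frequent at those of haematopoietic progenitors, the label of the line. Of 12 progenitor markers, 11 had a promoter loop in every list, all but Lmo4. Of all 21738 protein-coding genes, 8093 had one in untreated p30, 8423 in LPS-treated p30, 9744 in untreated p42 and 7628 in LPS-treated p42. The macrophage and monocyte counts that follow stood near or above those shares. Of 8 macrophage and monocyte markers, 3 had one in untreated p30, LPS-treated p30 and LPS-treated p42 and 5 in untreated p42, and Ms4a7 and C1qa had none in any list. Csf1r, the receptor for a macrophage growth factor, had 0 loops in untreated p30, 1 in LPS-treated p30, 6 in untreated p42 and 3 in LPS-treated p42. Over the list, 5 of the 5 genes with a loop had more in untreated p42 than in untreated p30, 3 had more and 1 fewer in p42 after LPS, 2 had more and 2 fewer with LPS in p30, and 5 had fewer with LPS in p42. Over all genes with a loop, 81.9% had more in the first of these comparisons, 23.6% more and 58.7% fewer in the second, 53.1% and 27.6% in the third, and 87.3% fewer in the last. The part of such cells in the values of the 9 genes was not tested. B and T cell markers had loops for 3, 2, 3 and 1 of 8 genes, erythroid markers for 1, 0, 2 and 0 of 5, and markers of other tissues for 1 of 10 in each list. The lists hold no measure of the isoform carried, so the labels could not be checked against Cebpa itself.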

How the data were processed

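H3K27ac HiChIP libraries of HPC-7 cells, 2 per group, were mapped by the authors to mm39 with BWA-MEM 0.7.17, duplicates were removed with pairtools, and loops were called with FitHiChIP in bins of 5 kb at a q-value under 0.01. How replicates were pooled is not given in the sources used here. The 4 deposited lists have 26 columns without a header: 6 of positions, 10 used here and 10 not used, of which 6 hold only 0. Each deposited contact count is the number of read pairs joining both bins, without normalization. The expected count was estimated by the authors' caller from distance and bin coverage. A fraction in the deposited lists gives each pair's contact probability, which is its expected count divided by all modelled contacts. Deposited coverage is the count of reads in each bin, the coverage bias is a ratio of it to the mean of peak or other bins, and the peak flag is a score of 0 or 1, all from the authors' caller. Because the caller models contacts from coverage, a pair of bins that gains H3K27ac reads is held to a higher expected count, and because only significant pairs are listed, a missing pair has an unknown count.

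The number of modelled contacts (expected count over probability) was 17976716 in untreated p30, 14503330 in LPS-treated p30, 18999991 in untreated p42 and 15831583 in LPS-treated p42, and sets the share expected of each list. The mean coverage of peak bins, taken as coverage over bias, was 2406, 2239, 2911 and 1939. Start sites were those of canonical GENCODE M39 transcripts on GRCm39. Partner bins were named by a start site they hold, otherwise by an exon or intron of any transcript of a covering gene. Contacts of a gene at loops that both lists hold were tested by exact binomial p-values, two-sided and adjusted after Benjamini and Hochberg over all genes with such a loop (threshold 0.05), and shares have 95% Wilson intervals. On simulated contacts for untreated p42 against untreated p30 with 200 of 7000 genes changed, the test recovered 38.5% at 1.5-fold and 75.5% at 2-fold, with 4.94% and 5.63% of its calls false.

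The 9 members and all gene lists were chosen with earlier results of these data known. Named were all members, for each the partner with the most contacts and every partner in all 4 lists (up to 6), the 3 genes most like Tlr4, and of the other pathway genes those with the most loops (4 with a tie) and with none. Further partners, and Csf1r, were named after their values were seen. Alternatives were lists of equal size, stricter q-values, minimum contacts and distance, neighbouring bins, merged partners, RefSeq starts, other shares as the null and other coverage scales. Python 3.11.15, pandas 2.3.3, scipy 1.17.1 and statsmodels 0.14.6 were used.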

Additional observations from a re-analysis of the deposited data

Results flagged for a closer look

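In 4 comparisons, values went in opposite directions in the groups set side by side, with both intervals from counting error clear of no change. With 1 pooled list per group, the differences were not tested. Contacts of Cd14, Tlr2 and Tlr9 with LPS, coverage of Tlr9 with LPS and contacts of Ticam1 between lines changed sign too. In each of these an interval included no change, so they are not listed here. The coverage of the Ly96 start-site bin, as a log2 ratio of p42 over p30, was 0.24 without LPS and -0.54 after LPS, a difference of 0.79. Contacts at the shared Ly96 loops, per modelled contact, had log2 ratios of 0.55 and -0.29, a difference of 0.85. Of 5538 genes with shared loops in both treatments, 618 (11.2%) had contact ratios of opposite sign in this comparison by the same rule. The start-site bin of Ticam1 had coverage ratios of 0.06 and -0.19, a difference of 0.25, where the median over all start-site bins was 0.06 and -0.11. The sign change of Ticam1 thus followed that of the medians. Of 5606 start-site bins in all 4 lists, 1578 (28.1%) had coverage ratios of opposite sign in this comparison by the same rule. For Tlr6, the log2 ratio of coverage after LPS over that without stood at 0.15 for p30 and at -0.18 for p42, which differ by 0.33. The medians over all start-site bins were 0.04 and -0.13, so this sign change too followed that of the medians. By the same rule, 1993 of 5606 bins (35.6%) had opposite signs. The signs of these coverage ratios of Ly96, Ticam1 and Tlr6 were the same under both other scalings of coverage.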

How the results depend on the processing

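Of the summary values recomputed under an alternative, 108 stayed within 1.5 times or within counting error, 59 moved and 1 turned sign. The values of single genes kept their call, or moved by less than counting error, in 330 of their alternatives, moved further in 101, gained a call in 22 and lost one in 12. The log2 ratio of the members' summed loops was 1.35 for untreated p42 over untreated p30, and 0.58 in lists of equal size and 0.53 with touching partner bins merged. For LPS-treated over untreated p42 it was -0.42 and turned to 0.35 in lists of equal size, where the members with more loops numbered 4 in place of 2, and 5 in place of 9 in untreated p42 against untreated p30.

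In the contact test, genes called higher and lower were 1542 and 22 of all genes in untreated p42 against p30. They were 640 and 0 with the expected counts as the null, 393 and 135 with the median share, 2489 and 57 with neighbouring bins, 7753 and 680 with missing pairs at 0, and lower 13 at loops in all 4 lists. After LPS they were 61 and 823 at first, and 2 and 107, 142 and 180, 120 and 1414, and 1445 and 5179 in that order of the first 4 alternatives. With LPS in p30 they were 998 and 12 at first, and 214 and 1, 139 and 64, 1821 and 23, and 5099 and 1530. With LPS in p42 they were 18 and 1132 at first, and 1 and 354, 37 and 115, 43 and 1892, and 398 and 8159. Genes tested in these comparisons, in the same order, were 7000, 6080, 6274 and 6774 at first. They were 8581, 7668, 7853 and 8364 with neighbouring bins and 10132, 9138, 9314 and 9953 with missing pairs at 0. Most genes tested were called in each comparison with missing pairs at 0.

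Of the 9 genes, those called higher in untreated p42 against p30 went from 3 to 1 with the expected counts (Cd14), 1 with the median share (Cd14), 5 with neighbouring bins and 9 with missing pairs at 0. Most of all genes tested were called higher too with missing pairs at 0. These counts and those below stand beside the counts of all genes given above for the same alternative. After LPS, higher went from 1 to 0, 2 and 4 with the expected counts, neighbouring bins and missing pairs at 0, and lower from 1 to 0, 0, 2 and 3 with the expected counts, median share, neighbouring bins and missing pairs at 0. With LPS in p30, higher went from 3 to 0 with the expected counts and 5 with missing pairs at 0, and lower from 0 to 1 with the latter. With LPS in p42, higher went from 0 to 1 (Tlr2) and lower from 0 to 1 (Cd14) with neighbouring bins, and to 2 and 6 with missing pairs at 0. At loops in all 4 lists or with at least 10 contacts, no count of members called moved by over 1.5 times.

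Members at least 1.5-fold higher in coverage went from 3 to 5 with LPS in p30, and from 1 (Cd14) to 0 in p42 against p30 after LPS, per modelled contact. At least 1.5-fold lower in the latter was 0 at first and 1 (Ly96) under both other scalings. Scaling per modelled contact moved the median log2 ratio over all start-site bins from 0.06, -0.11, 0.04 and -0.13 to 0.25, -0.44, 0.25 and -0.46. The share of all start-site bins past 1.5-fold was not counted on that scale. The moves of the members' counts are therefore not set apart from the shift of all bins. RefSeq starts changed the bin of Myd88 alone among the 6 genes placed. No paired analysis was possible because both replicates of each group were deposited as 1 list, and for the same reason no replicate could be left out. Loops with few contacts, such as the 13 of Tlr1 or the 16 of Tlr4 in untreated p42, can show only large differences, and a pair missing from a list has an unknown count. The cause of each move was not tested.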
